A study of Mus musculus with 8 samples.

Results

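Genes of cholesterol and fatty acid synthesis were followed through 8 mouse libraries of Sonic hedgehog medulloblastoma, a tumour of the cerebellum. The set holds 28 genes, listed by symbol with earlier results of these data known, of 20608 symbols in the bulk counts and 27998 genes in the single-cell matrices. By role, 7 genes act in the mevalonate steps (Acat2, Hmgcs1, Mvk, Pmvk, Mvd, Idi1, Fdps) and 11 in the squalene and sterol steps (Fdft1, Sqle, Lss, Cyp51, Tm7sf2, Msmo1, Nsdhl, Hsd17b7, Ebp, Sc5d, Dhcr7). Another 6 are regulators with a sterol carrier (Srebf1, Srebf2, Scap, Insig1, Insig2, Stard4), and 4 act in the fatty acid steps (Acaca, Fasn, Scd1, Scd2). All 28 were found in both kinds of data, Msmo1 in the bulk tables under its older symbol Sc4mol. The samples were 1 single-cell library of a primary tumour, 1 single-cell library of a tumour labelled as relapsed at 3 weeks, and bulk RNA-seq of sorted astrocytes in 3 libraries of stroma A and 3 of stroma B. Every mouse was Patched 1 deficient, and the labels name no allele, promoter, Cre driver, age or drug for any group. Cells were dissociated with papain and sorted by flow cytometry, per the labels. Per the design text, astrocytes of primary and relapsed tumours were to be compared, but no label ties stroma A or stroma B to either tumour. Nor do labels say whether libraries of a stroma come from separate animals, so bulk p-values measure only the spread between these samples, which may be technical. The description of the relapsed library names a primary tumour, and its title and source were followed here.

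Cholesterol is built from acetyl-CoA through mevalonate, farnesyl diphosphate, squalene and a series of sterols, and fatty acids are built from malonyl-CoA by fatty acid synthase. Most of these genes are targets of the SREBP transcription factors, encoded by Srebf1 and Srebf2. Scap escorts the factors to the Golgi for cleavage when sterols are low, and the Insig proteins hold Scap in the endoplasmic reticulum when sterols are high. Brain makes its own cholesterol because plasma lipoproteins do not cross the blood-brain barrier, and astrocytes and oligodendrocytes are known as major producers. In Hedgehog signalling, cholesterol is attached to the ligand and binds Smoothened, the protein that Patched 1 restrains.

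Promoter sequence from RefSeq on GRCm38.p6 was matched for 22 of 28 members, and Fdps, Fdft1, Sqle, Stard4, Scd1 and Scd2 had no entry. The 250 bases before the start site are shown for 3 genes whose levels the results turn on: Hmgcs1, an early enzyme of the pathway, at chr13:119690101-119690350 on the plus strand, Mvd, which was highest in differentiating tumour cells, at chr8:122443423-122443672 on the minus strand, and Insig1, which differed most between the tumours, at chr5:28071162-28071411 on the plus strand. Capitals mark matches on either strand to CCAAT (the NF-Y box), GGGCGG (the Sp1 or GC box) and TCACNCCAC (a sterol regulatory core).
Hmgcs1: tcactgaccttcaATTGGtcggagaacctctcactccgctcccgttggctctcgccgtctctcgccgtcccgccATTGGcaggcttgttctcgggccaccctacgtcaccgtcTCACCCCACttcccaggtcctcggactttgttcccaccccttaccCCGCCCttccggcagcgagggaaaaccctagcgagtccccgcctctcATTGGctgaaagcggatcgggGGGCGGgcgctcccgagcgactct
Mvd: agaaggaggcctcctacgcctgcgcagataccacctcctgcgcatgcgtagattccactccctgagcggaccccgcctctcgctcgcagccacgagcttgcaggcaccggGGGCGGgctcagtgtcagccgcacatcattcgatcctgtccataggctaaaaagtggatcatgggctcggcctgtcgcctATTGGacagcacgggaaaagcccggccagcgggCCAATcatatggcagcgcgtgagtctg
Insig1: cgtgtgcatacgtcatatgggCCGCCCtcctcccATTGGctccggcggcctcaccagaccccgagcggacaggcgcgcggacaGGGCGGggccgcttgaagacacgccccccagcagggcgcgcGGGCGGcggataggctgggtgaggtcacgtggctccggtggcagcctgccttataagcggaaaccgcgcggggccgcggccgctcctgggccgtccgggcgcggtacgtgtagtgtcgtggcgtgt
In 300-base windows (250 before to 50 after the start), the classical sterol regulatory element SRE-1 was found in 0 of 22 members and in 0.0999% of 27025 genes. TCACNCCAC, whose letters overlap that element, was found in Hmgcs1 alone among the members, and in 1.44% of all genes. The SREBP E-box TCACGTGA was found in 0 of 22 members and in 1.125% of all genes. Counted by window, CCAAT stood in 66.7% of the 30 windows of members against 37.4% of all 32851 windows, and GGGCGG in 76.7% against 35.7%. Windows of a gene with several starts overlap, and a match describes letters only.

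Bulk libraries held 6718165 to 11798735 reads, and the single-cell libraries held 56332247 UMIs (primary) and 69403567 UMIs (relapsed). After filters and doublet removal 8548 primary and 7369 relapsed cells were kept, and 92 barcodes occurred in both libraries. Ptch1, the gene named as deficient, was read at 70.3 to 143 counts per 1000000 reads (CPM) in stroma A against 118 to 541 in stroma B, and the labels do not say which stretch of it was removed. Sorted libraries carried all 14 astrocyte markers, summed to 4169, 2113 and 3170 CPM in stroma A against 7094, 11576 and 5021 in stroma B. They also carried 10 of 10 oligodendrocyte precursor markers, summed to 23402, 14073 and 13223 CPM in stroma A against 2861, 3269 and 13039 in stroma B, which is more than the astrocyte sum in 4 of 6 libraries. Mature oligodendrocyte markers summed to 1408, 2382 and 2393 CPM in stroma A against 250, 191 and 708 in stroma B, with no overlap. Cycling markers summed to 1796, 1668 and 1472 CPM in stroma A against 5285, 4635 and 5051 in stroma B, also with no overlap. Microglia and macrophage markers ranged from 46.8 to 3556 CPM among stroma A libraries alone. The part of these other cells in the results below was not tested, and in bulk samples fewer cells of a type and less RNA per cell cannot be told apart.

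In sorted astrocytes, most cholesterol synthesis genes were fitted somewhat lower in stroma B, and no member passed the test. All 28 members passed the filter on low counts. With edgeR's quasi-likelihood test, 0 of 28 members had an adjusted p under 0.05, where 0.663% of 14176 genes did, and 4 of 28 had an unadjusted p under 0.05, where 21.8% of genes did. DESeq2 likewise called 0 members. 23 of 28 members were fitted lower in stroma B, against 51.6% of genes, with a median log2 fold change of -0.33 against -0.03 over all genes. With limma on log2 FPKM 16 of 28 were fitted lower, and the median of all genes was 0.25. With DESeq2, and with no count filter, the median of members lay much closer to that of all genes, so the gap depended on the setting. Every one of the 11 sterol-step genes was fitted lower, with a median of -0.34, though Cyp51, Nsdhl, Hsd17b7, Ebp and Sc5d turned higher on the FPKM scale. Also fitted lower were 6 of 7 mevalonate genes (median -0.32), 3 of 6 regulators (-0.15) and 3 of 4 fatty acid genes (-0.35). Levels of 4 members did not overlap and were lower in stroma B, where 13.1% of genes did the same, and 1 member, Acaca, was higher without overlap, where 14.2% of genes were.

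Among mevalonate genes, Fdps, which makes farnesyl diphosphate, was read at 40.5, 39.4 and 29.0 CPM in stroma A against 18.7, 21.3 and 25.4 in stroma B. Every stroma B library lay below every stroma A library, and the fitted log2 difference was -0.73 (SE 0.25, edgeR adjusted p = 0.159). Hmgcs1, which makes HMG-CoA, was at 9.92, 10.3 and 12.7 CPM in stroma A against 5.77, 7.18 and 12.9 in stroma B, so that the groups overlapped through stroma B replicate 3. Mvd, which makes isopentenyl diphosphate, was at 28.6, 28.2 and 20.3 CPM against 16.8, 13.1 and 28.4, with the same replicate inside the range of stroma A. Fitted log2 fold changes of the others were -0.24 for Acat2 (acetoacetyl-CoA), -0.32 for Mvk and -0.09 for Pmvk (the kinases of mevalonate), and 0.57 for Idi1 (the isomerase), all with overlapping groups. Counts of Hmgcs1 and Idi1 were low for their deposited FPKM. Reads per FPKM, divided by exon length, stood at percentiles 0.483 and 0.538 of 12642 genes, so their CPM values rest on fewer reads than their FPKM would give.

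In the squalene and sterol steps, Msmo1, a sterol demethylase, was at 93.3, 93.7 and 72.3 CPM in stroma A against 45.3, 53.6 and 66.3 in stroma B. Its groups did not overlap, and the fitted log2 difference was -0.65 (SE 0.22, edgeR adjusted p = 0.159). Dhcr7, which makes cholesterol from its last precursor, was at 78.8, 53.8 and 47.7 CPM against 29.6, 33.1 and 42.8, also without overlap, and was fitted at -0.77 on the log2 scale (SE 0.27, edgeR adjusted p = 0.168). Lss, which closes the sterol rings, was at 46.4, 56.7 and 40.0 CPM against 23.0, 31.8 and 40.4. Here the highest stroma B library just passed the lowest of stroma A, and the fitted log2 difference was -0.59 (SE 0.27, edgeR adjusted p = 0.257). Sqle, the squalene epoxidase, was at 163, 129 and 107 CPM against 73.7, 79.8 and 129, and was fitted at -0.50 on the log2 scale. Fdft1, the squalene synthase, followed at -0.37, Tm7sf2, a sterol reductase, at -0.34, Sc5d, a sterol desaturase, at -0.20, and Nsdhl at -0.17. Hsd17b7 (-0.09), Ebp (-0.08) and Cyp51 (-0.01) were fitted close to 0, and each of these 7 had overlapping groups.

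Among the regulators the 2 SREBP genes were fitted in opposite directions, and neither passed. Srebf2, whose product drives cholesterol genes, was at 416, 289 and 266 CPM in stroma A against 133, 194 and 240 in stroma B. The groups did not overlap, and the fitted log2 difference was -0.78 (SE 0.29, edgeR adjusted p = 0.189). Srebf1, whose main products drive fatty acid genes, was at 277, 141 and 116 CPM in stroma A against 478, 491 and 109 in stroma B. Stroma B replicates 1 and 2 lay above every other library and replicate 3 below every other, so the fitted 1.01 (SE 0.59, edgeR adjusted p = 0.348) rests on which libraries enter. Without stroma B replicate 3 it was 1.46 (edgeR adjusted p = 0.0686), over the 6 libraries left out in turn it ran from 0.71 to 1.56, and without stroma A replicate 3 and stroma B replicate 1, which share a number in their titles, it was 0.52. Summed granule precursor and tumour markers were also highest in stroma B replicates 1 and 2, at 5126, 3872 and 2206 CPM in stroma B against 2193, 1471 and 1423 in stroma A, and their part in the Srebf1 values was not tested. Insig1 was at 49.6, 83.3 and 45.2 CPM against 47.1, 32.9 and 37.1, with overlap and a fitted log2 difference of -0.60 (SE 0.30, edgeR adjusted p = 0.277). Scap was fitted at -0.41, Insig2 at 0.11 and Stard4, which carries sterol between membranes, at 0.42, all with overlap.

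Of the fatty acid genes, none separated the groups by much. Per length, Scd2, the stearoyl-CoA desaturase of brain, had the highest deposited FPKM of all members, 148, 58.6 and 83.6 in stroma A (96.9 ± 46.3, SD, n = 3) and 61.0, 108 and 103 in stroma B (90.7 ± 25.9, SD, n = 3). The groups overlapped widely, and edgeR fitted its counts at a log2 fold change of -0.27 (adjusted p = 0.658). Fasn, fatty acid synthase, was at 1199, 623 and 613 CPM against 423, 683 and 575, with overlap and stroma A replicate 1 far above the rest. The fitted log2 difference was -0.53 (edgeR adjusted p = 0.395), and -0.07 without that library. Acaca, which makes malonyl-CoA, was at 79.2, 73.2 and 78.5 CPM against 86.1, 86.1 and 81.0. The groups did not overlap but lay close, and the fitted log2 difference was 0.13 (edgeR adjusted p = 0.648). Scd1 was at 151, 80.0 and 86.8 CPM against 32.7, 82.0 and 121, and its groups overlapped.

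**Figure D1:**
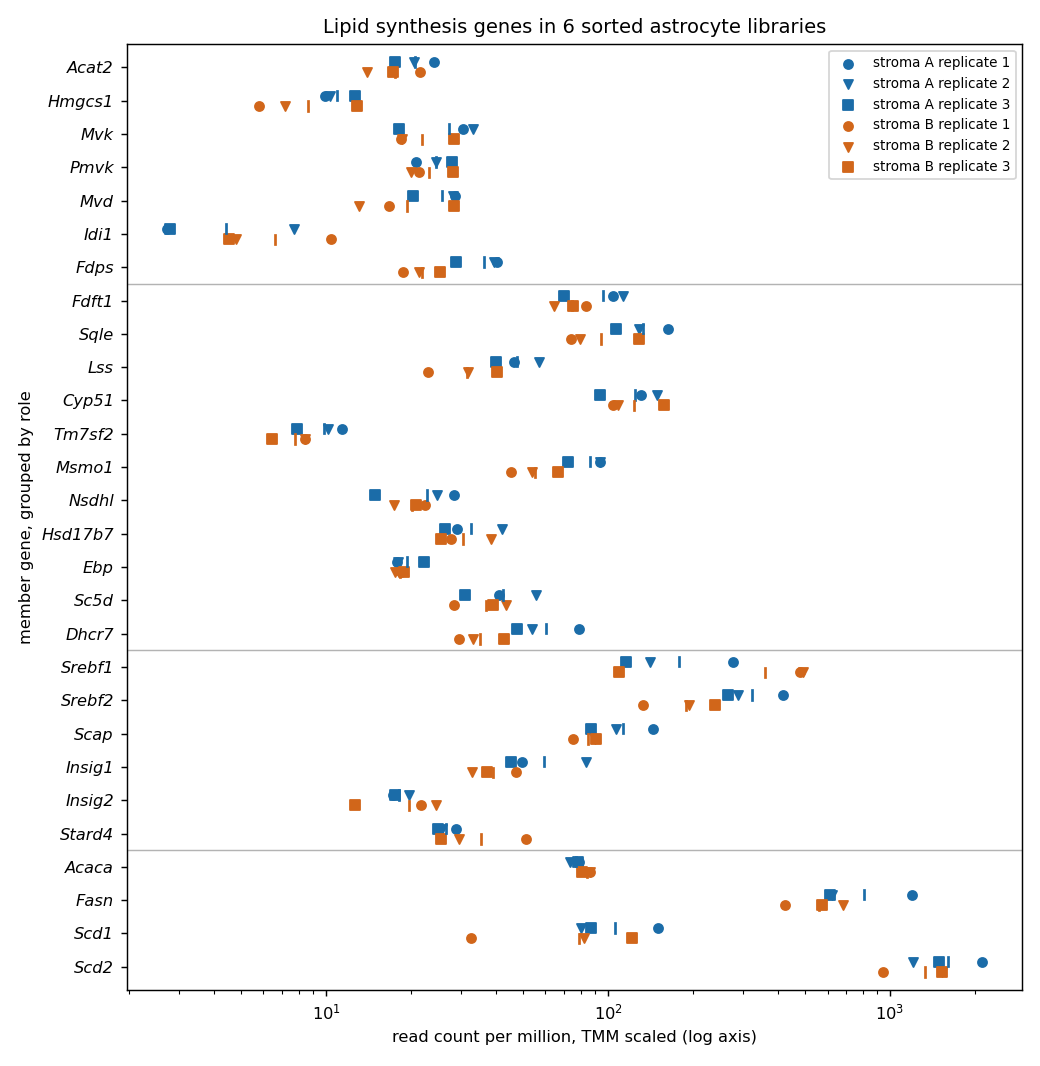
Level of each of the 28 members in 6 sorted astrocyte libraries, as TMM-scaled CPM on a log axis, grouped by role from mevalonate steps (top) to fatty acid steps (bottom). Each symbol is 1 library (stroma A blue, stroma B orange) and each vertical tick the mean of a group. Fdps, Msmo1, Dhcr7 and Srebf2 separate the groups with stroma B lower, Acaca with stroma B slightly higher, and the Srebf1 libraries of stroma B lie at both ends.

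Library by library, stroma A replicate 1 held the highest level of 12 members and stroma B replicate 1 the lowest level of 12. Summed over members, CPM came to 5378, 3555 and 3490 in stroma A against 2871, 3839 and 3583 in stroma B, so the groups overlapped. Without replicate 1 of each, both stroma B sums lay above both stroma A sums. On the deposited FPKM scale Fdps kept its separation, at 18.7, 10.7 and 11.1 against 8.21, 9.26 and 10.0. Msmo1 overlapped there, at 20.9, 14.4 and 13.02 FPKM against 9.34, 11.9 and 14.6. Dhcr7 (11.6, 5.22 and 5.16 against 3.79, 4.44 and 5.81) and Srebf2 (35.3, 16.1 and 17.4 against 10.1, 15.9 and 18.9) overlapped as well. Annotated genes of GENCODE M21 on mm10 overlap 14 of the 28 members, among them Rai1 with Srebf1 (chr11:60199089-60222581), Gm43738 with Fdps (chr3:89093588-89101959) and Akap9 with Cyp51. Strand handling of the counts is not given in the sources used here, so reads of such pairs cannot be told apart.

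Other lipid genes in sorted astrocytes gave no call either. Among 14 other synthesis genes 7 were fitted higher and 7 lower (median log2 fold change 0.01), and Lpin1, a phosphatidate phosphatase, had the smallest p there (-0.96, edgeR adjusted p = 0.127). Of 7 genes of SREBP control 4 were fitted higher, with Mbtps2, the site-2 protease that releases SREBPs, at 25.1, 24.0 and 20.7 CPM in stroma A against 43.3, 38.9 and 37.0 in stroma B. The fitted log2 difference was 0.77 (edgeR adjusted p = 0.118), without overlap. Of 15 tested genes of uptake, efflux, storage and turnover 14 were fitted lower (median -0.44). Abcg1, an exporter of sterol, was at 319, 252 and 279 CPM against 55.9, 43.1 and 110, far apart but short of the threshold, at -2.03 (SE 0.36, edgeR adjusted p = 0.0608). Of 11 genes of fatty acid oxidation and binding 8 were fitted lower, while Fabp7, the fatty acid binding protein of radial glia, was at 485, 362 and 378 CPM against 691, 1550 and 1431 (log2 fold change 1.58, edgeR adjusted p = 0.0883).

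In tumour cells of the granule neuron lineage, the relapsed library held far more Insig1 and more Srebf1, Sc5d and Hsd17b7 than the primary library, while the summed level of the cholesterol synthesis enzymes was close over the lineage and differed by class. The lineage comprised 7381 primary and 6919 relapsed cells, named from granule neuron markers, and the clusters were formed without the members. Clusters that met neither the cycling nor the differentiating rule were called precursor-like. Among these was primary cluster 7 (991 cells), with the DNA replication genes Cdc6 and Gins2 among its top genes. Primary clusters 8 (883 cells, precursor-like) and 14 (334 cells, cycling) had Hoxb2, Hoxb3 and Hoxb4 among their top genes and held 0 relapsed cells. The part of these clusters in the ratios below was not tested. With 1 library per tumour there is no test, and intervals are 95% Poisson intervals of counting error only. As CPM, here UMIs per 1000000 UMIs, the 18 mevalonate and sterol enzymes summed to 723 in the primary and to 748 in the relapsed cells. By class the sums moved in different directions, from 701 to 626 in precursor-like, from 623 to 798 in cycling and from 918 to 811 in differentiating cells. Past 2-fold, with at least 50 UMIs, 5 of 28 members were higher in the relapsed library, where 5.99% of 12689 genes were, and 1 was lower, where 8.12% were. Without cycling cells 3 members were higher, and the share of all genes for that setting is not given here. The median log2 ratio of members was 0.03 against -0.10 over all genes, and handling genes such as Fos and Jun summed to 348 and 359 CPM.

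Insig1, the sterol-sensing brake on SREBP release, was at 22.2 CPM in primary and 131 in relapsed granule lineage cells, a log2 ratio of 2.56 [2.47, 2.66]. It lies at chr5:28071363-28078662. The gap held in every granule class, at 2.31 in precursor-like, 2.95 in cycling and 2.22 in differentiating cells. With each cell thinned to 2000 UMIs, since median depth per cell was 5404 UMIs (primary) and 7230 UMIs (relapsed), the ratio over the lineage was 2.23. Over the clusters, Insig1 ranged from 18.8 to 28.3 CPM over 8 primary clusters and from 91.5 to 163 over 6 relapsed clusters, with no overlap. Each of the 14 granule clusters came from 1 library with at most 6 cells of the other, so a cluster here may reflect its library and not a cell state. Outside the lineage Insig1 was at 20.4 [5.56, 52.2] and 37.2 [25.6, 52.2] CPM in primary and relapsed astrocyte-like cells, and at 8.61 [4.30, 15.4] and 21.5 [8.66, 44.4] in microglia and macrophage-like cells. These intervals overlap, and in both classes Insig1 fell short of the minimum of 50 UMIs, so no difference between tumours was read in those cells.

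Srebf1 was at 186 CPM in primary and 417 in relapsed granule lineage cells, a log2 ratio of 1.16 [1.13, 1.20]. Its ratio was 1.13 in precursor-like, 1.65 in cycling and 1.03 in differentiating cells. Clusters spread widely, from 39.7 to 282 CPM in the primary and from 49.9 to 554 in the relapsed tumour, and the ranges overlapped. The other SREBP gene, Srebf2, was nearly level at 21.7 and 23.5 CPM, a log2 ratio of 0.11 [-0.01, 0.23], as was Insig2, which like Insig1 retains Scap, at -0.08 [-0.17, 0.01]. Scap was lower, at -0.38 [-0.54, -0.22], and Stard4 higher, at 0.41 [0.31, 0.51].

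Sc5d, the lathosterol oxidase (chr9:42251595-42264256), was at 12.4 CPM in primary and 28.7 in relapsed granule lineage cells, a log2 ratio of 1.20 [1.07, 1.34]. Hsd17b7, a ketosteroid reductase of the sterol path (chr1:169949535-169969241), was at 9.34 and 19.4, a log2 ratio of 1.05 [0.89, 1.22]. Clusters of both genes separated the tumours, with Sc5d at 9.05 to 17.2 in primary against 26.2 to 39.9 in relapsed clusters, and Hsd17b7 at 6.57 to 13.2 against 14.5 to 22.8. Sc5d, Hsd17b7 and Insig1 were thus the 3 of 28 members whose relapsed clusters all lay above all primary clusters, where 4.59% of genes did so, and 0 of 28 lay below, where 6.22% did. Without cycling cells the Hsd17b7 ratio was 0.79 and that of Sc5d 1.13.

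Other sterol genes stayed within 2-fold, apart from Tm7sf2. This reductase of the sterol ring was at 5.51 CPM in primary and 1.60 in relapsed cells, a log2 ratio of -1.78 [-2.15, -1.43], from 252 and 90 UMIs. Lss (0.50), Msmo1 (0.50), Hmgcs1 (0.41), Fdft1 (0.35) and Idi1 (0.33) were higher in the relapsed library beyond counting error, and Mvd (-0.72), Pmvk (-0.76), Ebp (-0.41), Mvk (-0.19) and Acat2 (-0.13) were lower. Fdps was level at 105 and 104 CPM, as were Dhcr7 (-0.01), Sqle (0.07), Cyp51 (0.07) and Nsdhl (-0.09), whose intervals all reached across 0.

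The fatty acid genes were lower in relapsed granule lineage cells, with the exception of Scd1. Scd2 was at 79.4 and 43.9 CPM, a log2 ratio of -0.85 [-0.93, -0.78], and Fasn and Acaca both stood at -0.34. Scd1 was scarce, at 1.33 and 3.01 CPM from 61 and 169 UMIs, a log2 ratio of 1.17 [0.74, 1.62]. Its difference was largest in cycling cells, 0.322 and 3.43 CPM from 4 and 100 UMIs (3.41 [2.01, 5.31]), and without that class it was 0.58. Cycling cells were 1423 of the primary and 2686 of the relapsed lineage.

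**Figure D2:**
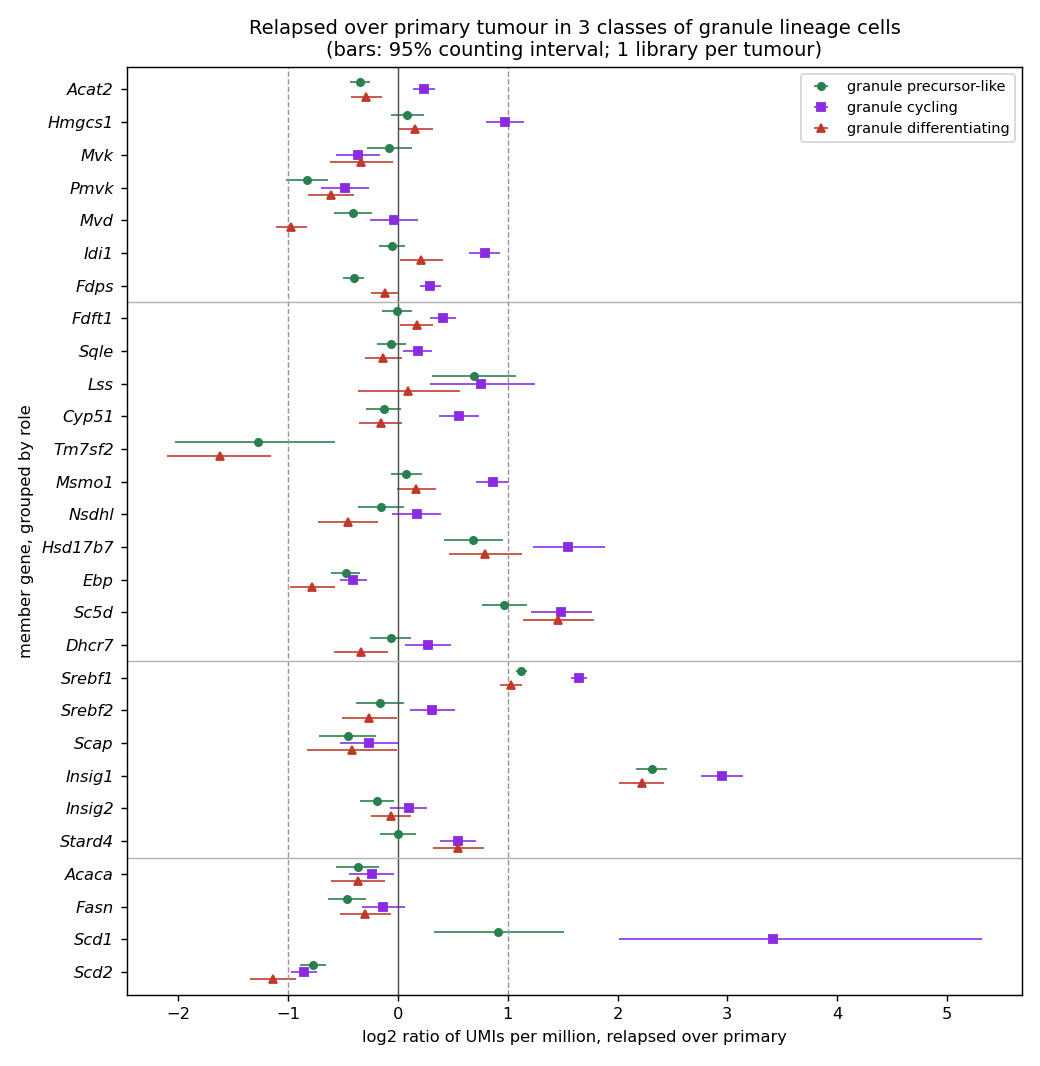
Log2 ratio of CPM, relapsed over primary, for each member in granule precursor-like (circles), cycling (squares) and differentiating (triangles) cells, with 95% counting intervals from 1 library per tumour. Dashed lines mark a 2-fold difference. Insig1 lies at 2.22 to 2.95 in all classes and Srebf1 at 1.03 to 1.65, most other members lie within the lines, and cycling values of many members lie to the right of the other classes.

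More members stood above 0, relapsed over primary, in cycling cells than in the other granule classes. In precursor-like cells 2 members were higher past 2-fold, Insig1 and Srebf1, where 4.99% of genes were, and 1 was lower, Tm7sf2 at -1.27, where 8.3% were. In cycling cells 5 of 27 measured members were higher, where 6.26% of genes were, and 0 lower, where 6.46% were. These were Scd1, Insig1, Srebf1, Hsd17b7 (1.55 [1.23, 1.89]) and Sc5d (1.48 [1.21, 1.76]). The median of members in cycling cells was 0.30 against -0.08 over all genes, with 19 of 27 above 0 where 43.5% of genes were, while in precursor-like cells it was -0.10 with 9 of 28 above 0 where 40.5% were. In differentiating cells 3 members were higher (Insig1, Sc5d at 1.46 and Srebf1), where 5.62% of genes were, and 2 lower (Tm7sf2 at -1.61 and Scd2 at -1.13), where 6.16% were. The classes were not matched for cell cycle phase between the tumours. Relapsed cycling cells included cluster 2 (1577 cells), with Tk1 and histone genes among its top genes. Primary cluster 7 (991 cells), with Cdc6 and Gins2 among its top genes, counted as precursor-like. These differences between classes, and the part of this mismatch in them, were not tested.

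**Figure D3:**
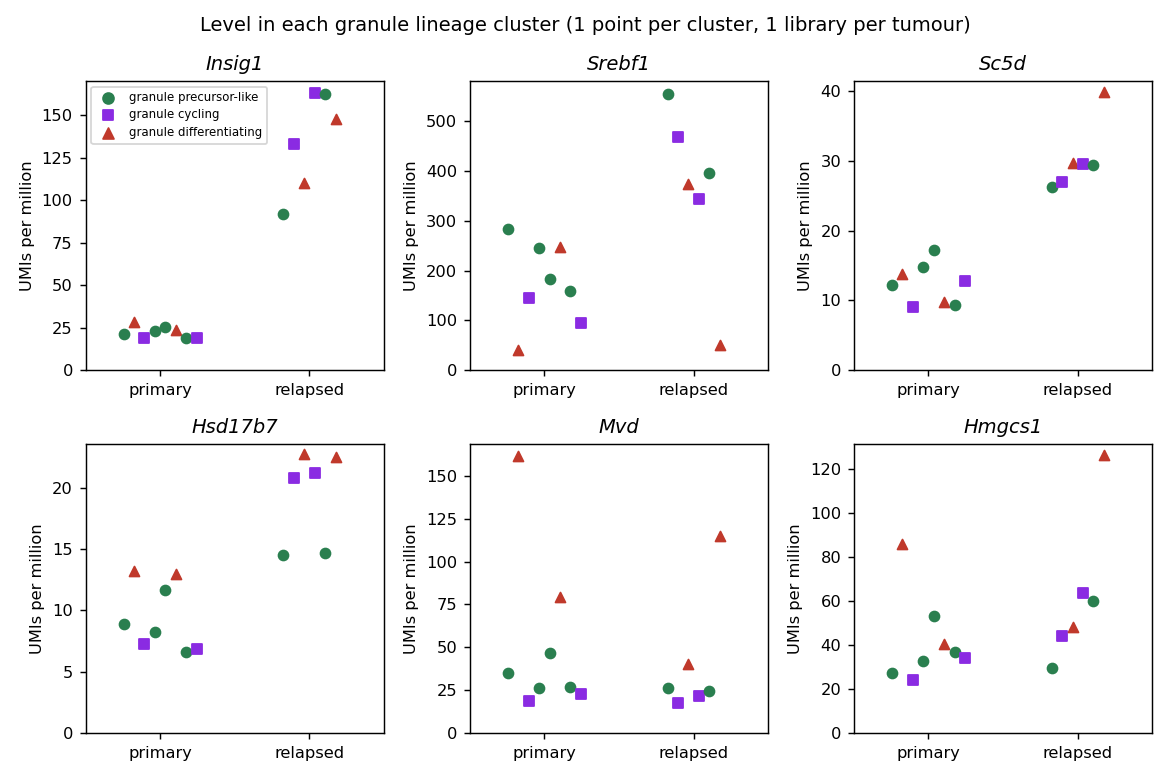
Level of 6 members in each granule lineage cluster, in CPM, with 1 point per cluster and primary clusters on the left of each panel. Insig1, Sc5d and Hsd17b7 separate the 8 primary from the 6 relapsed clusters, Srebf1 overlaps and is lowest in a differentiating cluster of each tumour, and Mvd and Hmgcs1 are highest in a differentiating cluster of each tumour.

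Within each tumour, many cholesterol genes were higher and Srebf1 was lower in differentiating than in precursor-like cells, each class taken as a whole. Mvd was at 34.2 CPM in primary precursor-like cells and 124 in differentiating cells, a log2 ratio of 1.86 [1.73, 1.99], and at 25.8 and 63.5 in the relapsed tumour, a log2 ratio of 1.30 [1.12, 1.48]. Tm7sf2 was at 3.13 and 16.2 in the primary (2.37 [1.96, 2.79]) and at 1.30 and 5.28 in the relapsed tumour (2.02 [1.28, 2.81]). They were the 2 members higher past 2-fold in each tumour, where 8.14% (primary) and 8.34% (relapsed) of genes were. Lower past 2-fold were 0 members in the primary, where 9.75% of genes were, and 1 in the relapsed tumour (Scd1, -1.64 [-2.72, -0.70]), where 7.57% were. Below 2-fold, Hmgcs1 stood at 0.85 in the primary and 0.92 in the relapsed tumour, Fdft1 at 0.69 and 0.87, and Srebf2 at 0.77 and 0.67. Srebf1 went the other way in both, at -0.81 and -0.90, but its differentiating clusters were unlike. In the primary it was at 39.7 CPM in cluster 4 and 247 in cluster 9, against 159 to 282 in precursor-like clusters. In the relapsed tumour it was at 49.9 in cluster 12 and 373 in cluster 3, against 396 and 554 in precursor-like clusters. Cholesterol genes differed between these clusters as well. In primary cluster 9, Hmgcs1 (40.3 CPM), Fdft1 (54.9), Srebf2 (22.7) and Tm7sf2 (5.855) lay within the range of precursor-like clusters. In relapsed cluster 3, Hmgcs1 (48.3) and Fdft1 (64.2) did so, while Srebf2 and Tm7sf2 lay above that range. Mvd lay above every precursor-like cluster of its tumour in both, at 79.3 in cluster 9 and 40.4 in cluster 3. The median of members was 0.31 and 0.29, against 0.06 and 0.05 over all genes, with 19 and 20 of 28 above 0, where 53.9% and 53.6% of genes were.

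Clusters with the highest levels of differentiated granule neuron markers, cluster 4 of the primary and cluster 12 of the relapsed tumour, held the highest levels of most members. They led for 18 of 28 members among primary granule clusters, where 33.3% of genes peaked, and for 16 of 28 among relapsed clusters, where 37.7% did. These clusters were singled out after their values were seen. Mvd reached 162 and 115 CPM there, Hmgcs1 85.8 and 126, and Tm7sf2 24.6 and 12.6. Srebf1 was lowest there, at 39.7 and 49.9 CPM, against 282 and 554 in its highest clusters. Acat2, Idi1, Ebp, Srebf1, Scap, Scd1 and Scd2 peaked elsewhere in both tumours. Median depth was 3969 UMIs per cell in cluster 4 and 4446 in cluster 12, below that of every other granule cluster. The next lowest was cluster 9 at 4732, and the part of depth in these levels was not tested.

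Between cycling and precursor-like cells, 0 members differed past 2-fold in either tumour, where 3.3% of genes were higher and 3.42% lower in the primary and 3.04% and 1.83% in the relapsed. The median of members was -0.22 in the primary, with 20 of 27 below 0 where 53.4% of genes were, and 0.19 in the relapsed tumour, with 21 of 27 above 0 where 49.4% were. Hmgcs1 was at 35.9 CPM in precursor-like and 26.9 in cycling cells of the primary, and at 38.2 and 53.0 in the relapsed tumour. Srebf1 was at 234 and 131 in the primary and at 510 and 413 in the relapsed tumour, lower in cycling cells of both. Primary cluster 7, with DNA replication genes among its top genes, counted as precursor-like here. Among primary granule clusters it held the highest Acat2 (145 CPM), Idi1 (71.7) and Fdps (137). Its part in these ratios was not tested.

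Astrocyte-like cells differed from tumour cells by high stearoyl-CoA desaturase, while mevalonate genes lay on both sides of the tumour level. They were few, 35 primary and 46 relapsed cells, with median depths of 4721 and 17080 UMIs per cell. Scd2 was at 1045 CPM in primary astrocyte-like cells against 79.4 in the granule lineage, a log2 ratio of 3.72 [3.51, 3.92], and at 968 against 43.9 in the relapsed tumour (4.46 [4.35, 4.57]). Scd1 was at 10.2 (2 UMIs) against 1.33 in the primary (2.93 [-0.14, 4.85]) and at 54.1 against 3.01 in the relapsed tumour (4.17 [3.67, 4.64]). Fasn followed at 1.30 [0.45, 2.02] and 1.58 [1.19, 1.94], and Scap at 2.66 and 1.82. Of 7 mevalonate genes 3 were above the lineage in both tumours. Hmgcs1 stood at 0.76 [-0.16, 1.53] and 0.83 [0.49, 1.15], Pmvk at 0.87 [-0.09, 1.68] and 1.19 [0.69, 1.64], and Mvk at 1.02 [-0.11, 1.95] and 0.45 [-0.20, 1.03]. Lower in the mevalonate and squalene steps, Fdps stood at -2.37 and -2.20, Acat2 at -2.29 and -2.64, Idi1 at -1.33 and -3.26, and Fdft1 at -1.43 and -2.05. Each of these 4 lower genes rested on 4 UMIs in the primary cells, and 6 members had 3 UMIs or fewer there. Past 2-fold, 9 members were higher and 7 lower in the primary, where 27.5% and 19.6% of genes were, and 6 higher and 11 lower in the relapsed tumour, where 22.8% and 28.3% were.

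Astrocyte markers led in both libraries, and markers of other cells were present too. Astrocyte markers summed to 16121 and 24439 CPM in astrocyte-like cells against 368 and 355 in the lineage. Atoh1, a granule precursor gene, was at 20.4 and 10.1 against 166 and 239, and Barhl1 at 133 and 32.7 against 481 and 644. Barhl1 was higher in primary than in relapsed astrocyte-like cells, while Atoh1 rested on too few UMIs there to compare the tumours. Handling genes stood at 617 and 1043 CPM in astrocyte-like cells against 348 and 359 in the lineage. Pericyte markers summed to 127 CPM in primary and 583 in relapsed astrocyte-like cells against 16.5 and 1.96 in the lineage, and fibroblast markers to 56.1 and 161 against 17.8 and 12.99. The part of these other genes in the member levels was not tested. The class also joined different cells, since of the subclusters 1 held 8 primary and 28 relapsed cells, another 27 primary and 0 relapsed, and the last 0 primary and 18 relapsed.

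Between the tumours, 8 members could be measured in astrocyte-like cells. Scd1 was higher in the relapsed tumour (2.41 [0.48, 5.49], from 2 and 48 UMIs), where 10.3% of genes were higher past 2-fold. Pericyte and fibroblast markers were higher there as well, and relapsed fibroblast-like cells held Scd1 at a like level, 54.0 CPM against 54.1. The part of such cells in this ratio was not tested. Srebf1, at 138 and 60.8 CPM (-1.18 [-1.87, -0.45]), and Scap, at 91.8 and 39.4 (-1.22 [-2.08, -0.31]), were lower, where 8.37% of genes were. With each cell thinned to 2000 UMIs the ratios were 1.41 for Scd1, -1.09 for Srebf1 and -0.98 for Scap, but none of them then reached the minimum of 50 UMIs. Scd2 was close in both, at 1045 [907, 1198] and 968 [904, 1035].

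Oligodendrocyte precursor-like cells, 170 in the primary tumour, stood above tumour cells in fatty acid genes and in some cholesterol genes. Scd1 was at 37.3 CPM (log2 ratio to the granule lineage 4.81 [4.03, 5.53]), Scd2 at 484 (2.61 [2.43, 2.78]) and Fasn at 131 (2.07 [1.72, 2.40]). Of mevalonate genes 4 were above the lineage and 3 below (median 0.12), and of sterol-step genes 6 above and 5 below (median 0.04), against a median of 0.11 over all genes. Higher past 2-fold were Lss at 1.89, Hmgcs1 at 1.62 (120 CPM), Pmvk at 1.43, Mvk at 1.13, Srebf2 at 1.18 and Insig1 at 1.04. Those 9 members were past 2-fold where 23.2% of genes were, and 2 were lower, where 17.9% were: Srebf1 at -2.78 (27.2 CPM) and Ebp, the sterol isomerase, at -1.66. Among primary classes, oligodendrocyte precursor-like and differentiating granule cells held the highest level of 9 members each. Oligodendrocyte precursor markers summed to 10453 CPM in these cells, and Atoh1 was at 13.6.

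Microglia and macrophage-like cells, 158 primary and 27 relapsed, had low levels of most members. In the primary 3 of 28 were above the lineage, where 27.1% of genes were, and in the relapsed tumour 7, where 32.4% were. Ebp was higher in these cells than in any other named class of at least 20 cells, at 80.6 (primary) and 52.3 CPM (relapsed), though the latter rests on 17 UMIs. In the primary 19 of 28 were lower than in the granule lineage past 2-fold, where 48.3% of genes were, and 0 higher, where 14.1% were. In the relapsed tumour 17 were lower, where 43.1% were, and 2 higher, where 14.8% were, Tm7sf2 at 12.3 CPM from 4 UMIs among them. Lss and Hsd17b7 gave 0 UMIs in the primary cells, which allows up to 2.35 CPM (3 UMIs). Scd2 was at 140 and 215 CPM, and Srebf1 stood at 29.0 and 40.0. Barhl1, a granule lineage gene, was at 30.5 and 15.4 CPM in these cells, and the part of free RNA in these levels was not tested. Between tumours 3 members could be measured and 0 passed 2-fold, where 4.57% of genes were higher and 8.68% lower.

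In the relapsed tumour, fibroblast-like cells (22) held Scd1 at 54.0 [35.0, 79.7] and Scd2 at 190 [153, 234] CPM, both above the granule lineage. There 5 members were higher past 2-fold, where 18% of genes were, and 9 lower, where 30.8% were. Pituitary hormone-like cells (93) had 0 members higher, where 15.2% of genes were, and 15 lower, where 35.2% were, and their handling genes summed to 3414 CPM, the most of any named class with at least 20 cells.

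**Figure D4:**
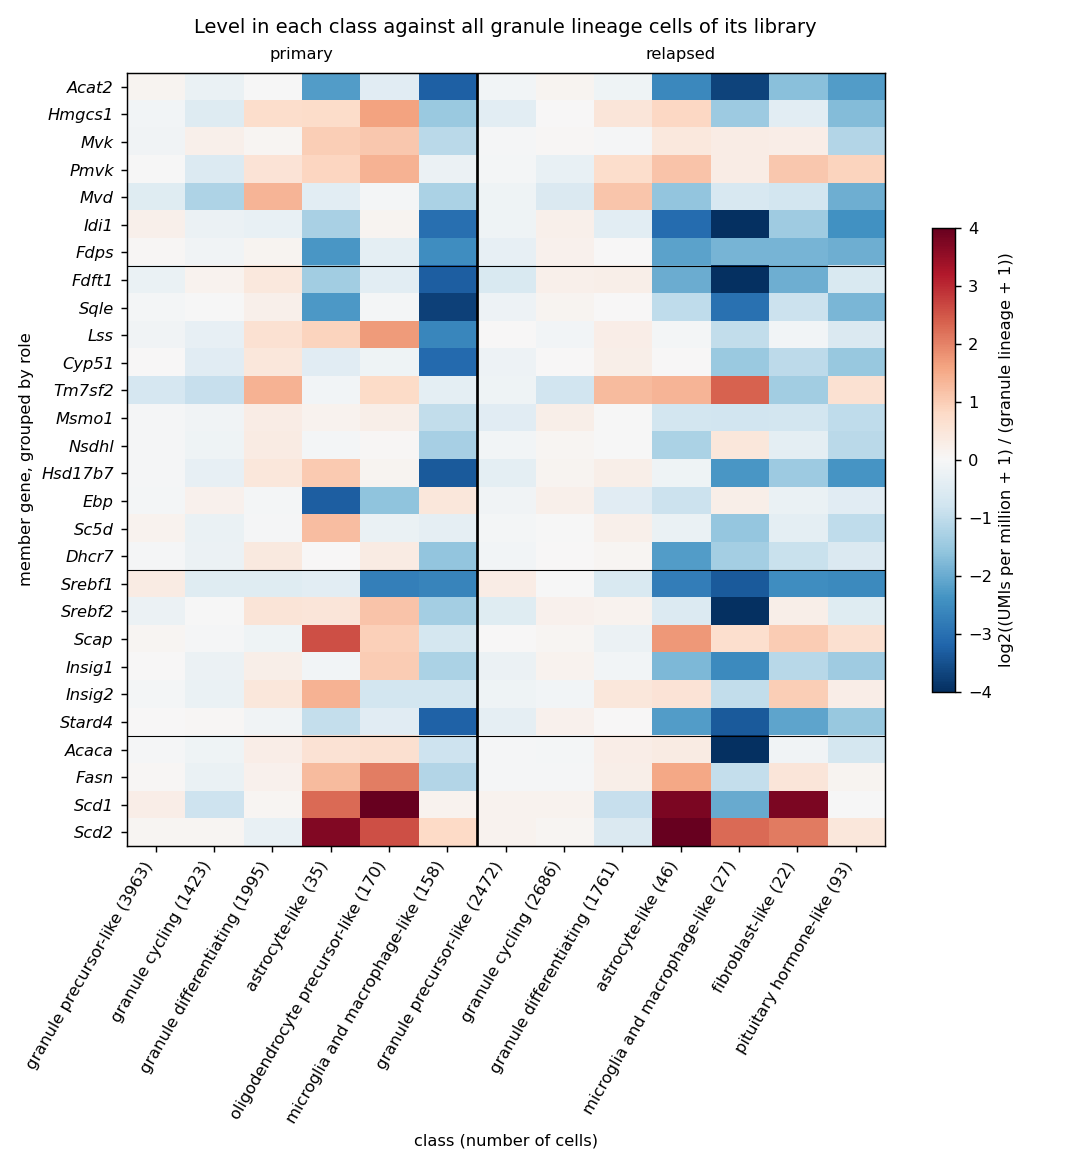
Level of each member in every named class of at least 20 cells, as the log2 ratio of (CPM + 1) to all granule lineage cells of the same library, red above and blue below, with cell numbers in parentheses and colours ending at -4 and 4. Scd1 and Scd2 are red in relapsed astrocyte-like and fibroblast-like cells and in primary astrocyte-like and oligodendrocyte precursor-like cells, and most members are blue in microglia and macrophage-like cells.

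In other lipid lists of granule lineage cells, few genes passed 2-fold apart from those of uptake, efflux, storage and turnover. Of 13 measured genes of that list, 1 was higher and 5 lower past 2-fold in the relapsed library (median -0.43). Over all genes 5.99% were higher and 8.12% lower. Among the 5 lower were Abca1, a sterol exporter, at 9.60 and 1.66 CPM (-2.54), and Abcg1 at -3.00. Nr1h3, the oxysterol receptor that drives both, was another, at -1.88. This list was high in microglia and macrophage-like cells (median 4.19 over the lineage in the primary), and their markers summed to 93.9 CPM in primary and 13.7 in relapsed granule lineage cells. Their part in these values was not tested. Of 14 other synthesis genes 1 was higher and 0 lower, and of 7 genes of SREBP control 0 passed in either direction. Of 11 genes of fatty acid oxidation and binding, Cpt1a, the mitochondrial gate of fatty acid oxidation, was higher (1.05 and 4.73 CPM, 2.17) and Fabp7 lower (-1.20). In astrocyte-like cells, Me1, which supplies NADPH, stood at 4.42 in the primary and 6.41 in the relapsed tumour against the lineage, the elongase Elovl5 at 2.61 and 3.70, and Abca1 at 5.64 and 7.57.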

How the data were processed

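The single-cell matrices were deposited as UMI counts in whole numbers, and bulk values as whole-number read counts and as FPKM per gene symbol, all made by the authors. Cell Ranger, STAR, Seurat and mm10 appear in the submitters' processing notes without versions or roles. For the bulk, counting tool, annotation and strand setting were not given in the sources used here. A bulk column named with a further number after the title of stroma A replicate 2 was taken for that sample, an assumed match, and the bulk libraries carry the extraction text of the single-cell libraries.

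Members and lists were chosen with earlier results of these data known. All members are named, with full values for the 6 smallest p and for those past 2-fold, and other lipid genes where they pass or have among the 4 smallest p of their list, with a few others picked after their values were seen.

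Bulk counts were filtered with filterByExpr by group, scaled by TMM and tested with edgeR 4.0.16 (quasi-likelihood, R 4.3.3) without covariates. P-values were Benjamini-Hochberg adjusted over 14176 genes at a threshold of 0.05, and the standard error is the log2 fold change over the square root of F. Alternatives used DESeq2 1.42.0, limma 3.58.1 on log2(FPKM + 1), no filter, RLE scaling and single libraries left out. The test was checked on simulated data.

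Cells with at least 500 genes and at most 10% mitochondrial UMIs were kept, 9094 of 9164 primary and 7839 of 7852 relapsed barcodes. Scrublet's automatic threshold marked 0 cells and was taken as failed, so the 6% with the highest scores were removed (546 and 470 cells). Both libraries were clustered together in scanpy 1.11.5 (10000 UMIs per cell, 2000 variable genes without members or other lipid lists, 30 components, 15 neighbours, Leiden resolution 1, leidenalg 0.10.2). Clusters were named where at least 3 markers stood 4-fold or more over other cells at 20 CPM or more and in 20% of cells, granule clusters were called cycling or differentiating at a median marker fold of 1.25 or more with 3 markers at 1.5-fold and 20 CPM, and otherwise precursor-like where 3 precursor markers reached 20 CPM, and clusters under 0.65 of the median gene number stayed unnamed. This rule was chosen after the data had been seen. Ratios of summed UMIs as CPM carry exact 95% intervals (scipy 1.17.1) that cover counting error only.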

Additional observations from a re-analysis of the deposited data

Results flagged for a closer look

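Between cycling and precursor-like granule cells, 6 members had log2 ratios of opposite sign in the primary and the relapsed tumour, each beyond its counting interval. With 1 library per tumour these differences were not tested, and the classes were not matched for cell cycle phase between the tumours. The ratio of Hmgcs1 was -0.42 in the primary and 0.47 in the relapsed tumour, and that of Idi1 was -0.45 and 0.39. Fdps stood at -0.19 and 0.51, Acat2 at -0.38 and 0.20, Cyp51 at -0.47 and 0.21, and Insig1 at -0.25 and 0.39. Srebf1, relapsed over primary, was -1.18 in astrocyte-like cells and 1.16 in the granule lineage, also untested.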

How the results depend on the processing

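In bulk, 0 of 28 members were called under any alternative run, while the genes called in all went from 94 to 91 (RLE scaling), 227 (no count filter), 181 (limma on FPKM), 1728 (DESeq2) and 1342 (without stroma B replicate 3), and 0 without any other library. Members fitted lower numbered 16 to 23. The median of all genes moved to 0.25 with limma on FPKM (members -0.05), to -0.26 with DESeq2 (members -0.31) and to -0.15 with no filter (members -0.21). Log2 fold changes turned direction for members near 0. With limma on FPKM, an alternative added after seeing the data, they were 0.076 for Acat2, 0.13 for Pmvk, 0.18 for Cyp51, 0.048 for Nsdhl, 0.10 for Hsd17b7, and 0.11 for Ebp and Sc5d. With no count filter they were 0.045 for Pmvk, 0.040 for Ebp, 0.11 for Cyp51 and 0.032 for Hsd17b7, and with DESeq2 0.0079 for Cyp51. Leaving out each library in turn gave -0.22 to 0.028 for Pmvk, -0.20 to 0.14 for Cyp51, -0.39 to 0.099 for Nsdhl, -0.28 to 0.14 for Hsd17b7, -0.13 to 0.032 for Ebp, -0.38 to 0.041 for Sc5d, -0.073 to 0.37 for Insig2 and -0.43 to 0.049 for Scd2. Without both libraries of the shared number, Pmvk was at 0.078, Idi1 at -0.16 and Ebp at 0.019. No paired analysis was possible because the titles of stroma A and stroma B share only 1 number. The cause of these turns was not tested.

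In single cells, members past 2-fold between tumours numbered 3 higher in the lineage without cycling cells, 4 higher in precursor-like cells at Leiden resolution 0.5 and with ratios centred on all genes, 0 lower there with cells thinned to 2000 UMIs, and 1 lower in cycling cells with doublets kept. In astrocyte-like cells 0 were higher when thinned, and 0 lower when thinned or at resolution 0.5; thinning left the members that had passed below 50 UMIs. With doublets kept, 1 member was lower in primary cycling and 1 in primary differentiating cells against precursor-like cells. In relapsed differentiating cells 2 were lower at resolution 0.5 and 0 when thinned. The cause was not tested. Shares of all genes past 2-fold under these settings are not given here, so the counts show only how the calls moved. Insig1 stayed between 2.23 and 2.66 in the lineage under every alternative run. The few UMIs of Scd1, Tm7sf2 and the astrocyte-like class limit those ratios.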

Other observations

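Among cells left without a name, cluster 20 (34 relapsed cells) held high levels of many cholesterol genes. Fdps was at 269 [222, 322] CPM, Insig1 at 176 [139, 220], Hmgcs1 at 160 [124, 202] and Sc5d at 76.4 [52.6, 107], while Srebf1 was at 32.4 [17.7, 54.4]. A small cluster of 25 primary cells held Scd2 at 523 [422, 641] and Insig1 at 90.0 [51.5, 146]. Cells with few detected genes also differed between the tumours in Insig1, at 11.4 [7.16, 17.3] in 604 primary cells of cluster 11 and 137 [110, 168] in 151 relapsed cells of cluster 18. In the same clusters Srebf1 was at 110 [95.7, 126] and 336 [293, 382].

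Genes near those that differed most between the tumours were read for comparison. Within 1 Mb of Insig1, 5 measured genes had log2 ratios of 0.25 to 1.37 in the granule lineage (median 0.52), against 2.56 for Insig1. Medians near Srebf1 (35 genes), Sc5d (6 genes) and Hsd17b7 (13 genes) were -0.21, 0.23 and -0.39.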
